A study of Homo sapiens with 16 samples.

Results

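INTS13 occupancy was compared between HEK293T cells depleted of HDGF and HEK293T cells given a control depletion, by chromatin immunoprecipitation followed by sequencing (ChIP-seq). The members were all INTS13 peaks that the authors listed on chromosomes 1 to 22, X and Y in these conditions, 105994 after HDGF depletion and 31233 in control cells. Together they are 137227 of the 327771 peaks in all lists of the series, and they come from 4 of its 16 samples. Both groups were HEK293T, an established human embryonic kidney line, and both were precipitated with an INTS13 antibody from Bethyl Laboratories. The depleted group received a pool of small interfering RNAs against HDGF for 72 h, and the control group a control depletion, and the genotype is given as wild type for all samples. Each group has 2 labelled replicates but a single deposited list, so no value below carries a replicate error and no test between the conditions was possible. A peak list measures no RNA or protein, so neither the depth of the HDGF depletion nor the identity of the cells can be checked from it.

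INTS13 is a subunit of Integrator, a complex that binds RNA polymerase II early in transcription and cuts the nascent RNA. Integrator was first known for making the 3′ ends of the small nuclear RNAs (snRNAs) of the spliceosome, and it also ends transcription at many paused protein-coding genes. HDGF is a chromatin protein whose PWWP domain reads methylated histone H3. The comparison asks where INTS13 is found on chromatin when HDGF is depleted.

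The stretches below come from promoters of genes with an INTS13 summit near the start. The positions, classes and shares behind them follow later. The motif sets were chosen for the letters they carry, so they are not typical of INTS13 sites. Some stretches lie outside the listed peak of their gene, among them those of RPAIN, KAT5, IP6K1 and DHX29. All are RefSeq sequence of GRCh38.p14, read 5′ to 3′ on the strand of the gene, and positions count from the first transcribed base as 0. A gene was kept when both lists had a peak summit within 1 kb of its start, lost when the control list alone had one, and gained when the depletion list alone had one. The first set is shown because it carries AAGATGGC, the core letters bound by the factor YY1, which are in capitals. They begin at position 18 in TM2D1, 8 in KDM5C, 16 in FBXO28 and 25 in BLTP3B, all kept, at 9 in NUP88 and 25 in PRR12, both lost, and at 4 in IP6K1 and 13 in KAT5, both gained. IP6K1 holds the reverse complement.
TM2D1 (kept), chr1:61725105-61725134, minus strand: tgtcggtctccAAGATGGCggccgcctggc
KDM5C (kept), chrX:53225181-53225210, minus strand: gctgacaaaccAAGATGGCggcggcggcgc
FBXO28 (kept), chr1:224114116-224114145, plus strand: atcaagcccccAAGATGGCggcagcggcgg
BLTP3B (kept), chr12:100142831-100142860, minus strand: atgctgcagccAAGATGGCgcccgcggcgg
NUP88 (lost), chr17:5419635-5419664, minus strand: gcagttgggccAAGATGGCggccgccgagg
PRR12 (lost), chr19:49591196-49591225, plus strand: cgccttgtgcaAAGATGGCtgcaccgtgag
IP6K1 (gained), chr3:49786520-49786549, minus strand: ctcggctagccGCCATCTTgttgttgatcc
KAT5 (gained), chr11:65712254-65712283, plus strand: tggagggagggAAGATGGCggaggtggtga

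The second set carries CACGTG, the E-box letters that MYC, USF and TFE3-type factors bind, again in capitals. LAMP1, TAF12 and DNAJC8 were kept, RPAIN was lost, and AP5Z1 was gained. The letters begin at −192 in LAMP1, −121 in TAF12, −21 in DNAJC8, −114 in RPAIN and −37 in AP5Z1.
LAMP1 (kept), chr13:113297036-113297065, plus strand: ccaggccgggtCACGTGggtccagggtcac
TAF12 (kept), chr1:28643170-28643199, minus strand: aatatcgccacCACGTGtcggagggcagtc
DNAJC8 (kept), chr1:28233032-28233061, minus strand: cctgtaagaatCACGTGaggcgacgcctgc
RPAIN (lost), chr17:5420057-5420086, plus strand: aaatctgtctcCACGTGgggccggtcgata
AP5Z1 (gained), chr7:4775575-4775604, plus strand: atgtgatgcggCACGTGacgcagccacgta

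The 150 bases before the start are shown whole for a gene with the highest −log10 q of each class. The control list was used for kept and lost genes, the depletion list for gained genes. TLE4 tied with MAN2C1, and MTREX and IP6K1 tied with DHX29. In LAMP1 the capitals mark E-box letters at -142 and -28. In DHX29 they mark GC box letters at -100 and CCAAT letters at -30, and in MAN2C1 none of the 10 motifs searched was present in these bases.
LAMP1 (kept), chr13:113297089-113297238, plus strand: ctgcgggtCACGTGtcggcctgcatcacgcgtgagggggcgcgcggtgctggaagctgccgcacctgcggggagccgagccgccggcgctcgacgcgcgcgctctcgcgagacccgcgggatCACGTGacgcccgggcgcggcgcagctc
MAN2C1 (lost), chr15:75368608-75368757, minus strand: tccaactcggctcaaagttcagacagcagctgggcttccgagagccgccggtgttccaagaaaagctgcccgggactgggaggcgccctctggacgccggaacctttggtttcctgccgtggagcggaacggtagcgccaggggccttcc
DHX29 (gained), chr5:55307695-55307844, minus strand: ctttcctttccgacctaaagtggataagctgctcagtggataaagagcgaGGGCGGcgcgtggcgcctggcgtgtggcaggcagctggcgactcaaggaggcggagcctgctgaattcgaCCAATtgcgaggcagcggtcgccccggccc

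The depletion list was longer than the control list over all peaks and shorter among the strongest. The depletion list covered 39.9 Mb and the control list 12.4 Mb, and median peak widths were 301 and 309 bp. The authors' fold enrichment at the summit had a median of 3.27 in the depletion list and 3.11 in the control list. The folds step by whole reads, and the background behind them was 4.20 reads per position in the depletion list and 6.40 in the control list. The weakest listed summit held 12 reads after depletion and 17 in control, while the strongest held 400 in both lists. There were 7543 depletion peaks and 5396 control peaks with −log10 q ≥ 5, called strong below, and 495 depletion peaks and 749 control peaks with −log10 q ≥ 10. Since the backgrounds differ, folds of the lists are given side by side as descriptions and do not measure a change. The part that the difference in background plays in these counts was not tested.

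Of the depletion peaks, 15286 of 105994, or 14.4% (exact 95% interval 14.2 to 14.6), overlapped a control peak by at least 1 base. Of the control peaks, 15724 of 31233, or 50.3% (49.8 to 50.9), overlapped a depletion peak. The intervals are Clopper-Pearson intervals and cover counting error only. When both lists were taken at the length of the control list by −log10 q, 30.0% of depletion peaks and 32.7% of control peaks overlapped. The cut fell among depletion peaks tied in −log10 q. Which of the tied peaks stayed is arbitrary, here and in all later values at this length. The share was higher in stronger classes of depletion peaks throughout, and in the control list with an exception between 8 and 20. Depletion peaks with a −log10 q under 2 were found in the control list in 4.26% of cases, those between 5 and 6 in 42.5%, those between 10 and 20 in 93.0%, and all 123 with at least 20 were found. Control peaks with a −log10 q under 2 were found in the depletion list in 33.1% of cases, those between 5 and 6 in 63.2%, those between 8 and 10 in 79.2%, those between 10 and 20 in 75.2% (397 of 528), and those with at least 20 in 87.3% (193 of 221). Stronger peaks were also wider, which makes an overlap of 1 base easier: median widths were 281 bp in the weakest class, 765 bp between 10 and 20 and 614 bp in the strongest class of depletion peaks, and 276, 601 and 412 bp in the same classes of control peaks. With summits within 250 bp of each other required, which uses no widths, 47.4% of the strongest 10% of control peaks and 33.0% of all control peaks were found. The strongest 10% of control peaks, with ties, was found again in 73.2% (71.8 to 74.6) and the weakest 10% in 37.6% (36.2 to 39.0). Many peaks of the strongest class, with a −log10 q of at least 20, lay over 100 kb from any gene. They were 61 of 123 depletion peaks (49.6%) and 129 of 221 control peaks (58.4%), against 1.22% and 3.92% of all peaks. All 123 depletion peaks of that class were found in the control list, and 61 of them thus lay far from genes. At −log10 q ≥ 10, 86 of 87 depletion peaks and 141 of 244 control peaks that far from genes were found in the other list. Of all peaks of that strength, 469 of 495 depletion peaks and 590 of 749 control peaks were found.

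**Figure D1:**
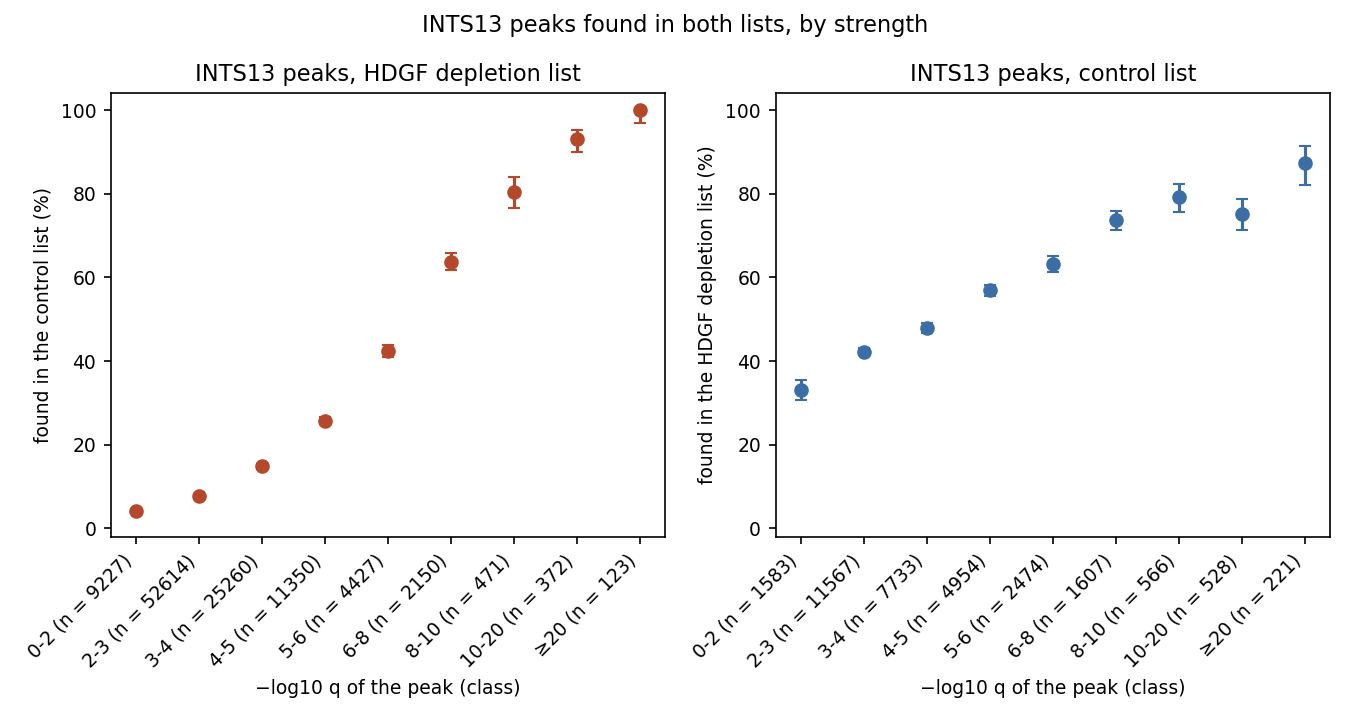
Share of INTS13 peaks (%) that overlap a peak of the other list, by class of −log10 q, with exact 95% intervals as bars and the number of peaks in each class under the axis. In the depletion list (left) the share runs from 4.26% in the weakest class to 100% in the strongest, and in the control list (right) from 33.1% to 87.3%.

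Strong peaks found in a single list lay in different places in the lists. At −log10 q ≥ 10, 26 depletion peaks and 159 control peaks had no partner. Of the 26 depletion-only peaks, 17 lay inside a protein-coding gene and 1 lay over 100 kb from any annotated gene. Of the 159 control-only peaks, 15 lay inside a protein-coding gene and 103 (64.8%) lay over 100 kb from any gene, with 55 on chromosome 1 between 120 and 125 Mb. No depletion-only peak of this strength lay in that stretch. The strongest control-only intervals were chr4:49120859-49121159 with a fold of 11.6, chr4:50265946-50266200 with 10.4 and chr1:124206101-124206409 with 9.46. The strongest depletion-only intervals had folds of 6.54 at chr13:17402989-17403227, 6.35 at chr9:79660728-79661036 inside TLE4, the gene of a Groucho-type corepressor, and 6.16 at chr1:225247668-225248053 inside DNAH14, a dynein heavy chain gene. The highest intervals of both lists were shared and lay outside genes. At chr16:46388552-46392053 the fold was 77.2 after depletion and 54.2 in control, and at chr1:125178856-125180763 it was 74.9 and 54.1. Both summits in these regions held at or near the 400 reads at which the lists end, so those folds do not rank the conditions. No peak sequence was read. Whether the peaks far from genes lie in repeated sequence, where reads can pile up, was not tested.

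Peaks at gene starts were found again more often than peaks far from genes in the control list. A start was available for 15842 of the 20037 protein-coding genes, and a peak was at a start when its summit lay within 1 kb. In the depletion list 2404 peaks (2.27%) were at a start, and in the control list 576 (1.84%). Among strong peaks, 58.4% (51.9 to 64.7) of the 238 depletion peaks at starts were found in the control list, against 54.3% of all depletion peaks of that strength. Of the 188 control peaks at starts of that strength, 82.4% (76.2 to 87.6) were found in the depletion list, against 70.2% (68.9 to 71.4) of all such control peaks. Control peaks of that strength over 100 kb from any gene were found in 47.8% (43.4 to 52.3) of 510 cases. Of the 227 strong depletion peaks over 100 kb from any gene, 82.8% were found in the control list. At −log10 q ≥ 10, 30 of 32 depletion peaks and 41 of 44 control peaks at starts were found in the other list.

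Summits gathered at gene starts in both lists, with a lower contrast to the flanks after depletion. In the depletion list, strong summits were 4.23 times as dense within 250 bp of a start as at 2 to 5 kb from it, and in the control list 14.9 times. Over all peaks the ratios were 1.42 after depletion and 3.22 in control. The flanks differed as well as the centre: the number of strong peaks within 250 bp was 117 after depletion and 128 in control, while the flanks held on average 13.8 and 4.29 such peaks per 250 bp. Within 1 kb of a start the strong depletion summits had a median position 16 bp after the start and the strong control summits 61.5 bp, and 54.6% and 69.1% lay downstream. Where strong peaks of both lists overlapped at a start, their summits lay a median of 50.5 bp apart (98 pairs), and 84.7% of pairs were within 250 bp.

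**Figure D2:**
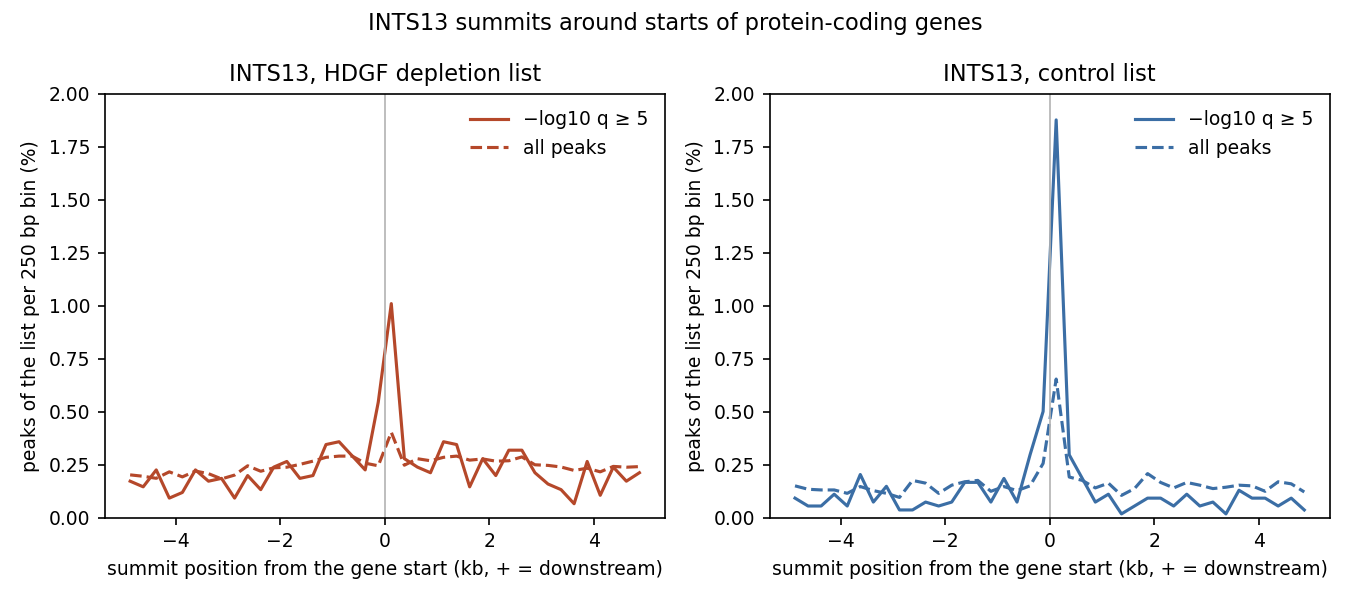
INTS13 summits around starts of protein-coding genes, as the share of each list's peaks (%) per 250 bp bin against distance from the start in kb, with positive distances downstream. The bin from the start to 250 bp downstream holds 1.01% of strong depletion peaks (left, solid line) and 1.88% of strong control peaks (right, solid line), and dashed lines show all peaks.

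Spliceosomal snRNA genes had INTS13 peaks far more often than other short genes in both lists. Genes under 2 kb were scored by a summit within 1 kb of the gene, since their strand was not used, and over all 21647 such genes 10.4% had a depletion peak, 2.9% a control peak, 2.16% both and 8.25% a depletion peak alone. Among the 41 genes for spliceosomal and U7 snRNAs, 21 (51.2%, 35.1 to 67.1) had a depletion peak and 18 (43.9%, 28.5 to 60.3) a control peak. In the whole lists all 18 genes with a control peak also had a depletion peak, and 3 of the 41 (7.32%), RNU1-2, RNVU1-31 and RNVU1-1, were gained, a share near that of all short genes. This count rests on the longer depletion list. With both lists at the length of the control list by −log10 q, 13 of the 18 were kept and 1 gene, RNVU1-1, was gained. RNU4-2, RNU4ATAC, RNU5A-1, RNU5E-1 and RNVU1-6 were lost. RNU4-2 and RNVU1-1 had the same depletion −log10 q, 3.21, which is the tied value at the cut. Their classes at this length are therefore arbitrary. Of all short genes, 1.34% were kept, 1.56% lost and 1.91% gained. Among strong peaks 10 of the genes had a depletion peak and 15 a control peak, with 9 kept, 6 lost and 1 gained. Depletion summits lay within 300 bp of the gene at 14 of the 18, with a median distance of 76.5 bp, and control summits at 18 of 18, with a median of 36.5 bp. Of the 3 genes gained in the whole lists, RNU1-2 and RNVU1-1 had depletion summits 479 and 729 bp outside the gene. The summit of RNVU1-31 lay inside it, with 14 reads. At −log10 q ≥ 8 a peak stood at 5 of the 41 genes after depletion and at 9 in control.

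RNU11 and RNU12 code for snRNAs of the minor spliceosome, which removes a rare class of introns. At RNU11 (chr1:28648600-28648734) the fold was 9.24 after depletion, from 47 reads, and 9.19 in control, from 67 reads. Counting intervals of these folds, 6.84 to 12.2 after depletion and 7.15 to 11.6 in control, overlapped. RNU12 had 3.85 after depletion and 4.05 in control. RNU4ATAC, the U4-type RNA of the same spliceosome, had 3.27 after depletion and 4.05 in control.

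Among genes of the major spliceosome, RNU2-2 (chr11:62841619-62841809), which codes for a U2 snRNA, had a fold of 8.08 (5.85 to 10.9) after depletion and 8.11 (6.20 to 10.4) in control. RNVU1-27, a variant U1 gene, had 7.12 after depletion and 7.16 in control. RNU4-2, the main U4 gene, had 3.46 (2.10 to 5.43), from 17 reads, after depletion and 5.41 (3.88 to 7.34), from 39 reads, in control. Among U5 genes RNU5E-1 had 3.08 after depletion and 5.13 in control, RNU5D-1 3.66 and 5.27 in the same order, and RNU5A-1 3.27 and 4.19. RNU5F-1 had 5.97 after depletion and 5.13 in control, and RNU5B-1 4.43 and 4.19. At RNU7-1, whose RNA guides the cutting of histone messages, the fold was 4.23 after depletion and 2.70 in control. The variant U1 genes RNVU1-14, RNVU1-15, RNVU1-8, RNVU1-7, RNVU1-30 and RNVU1-6 had folds between 3.27 and 5.39 after depletion and between 3.24 and 5.27 in control. Counting intervals of the conditions overlapped at each gene named in this paragraph, and U1 variants on chromosome 1 have near-identical copies among which reads can be split.

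**Figure D3:**
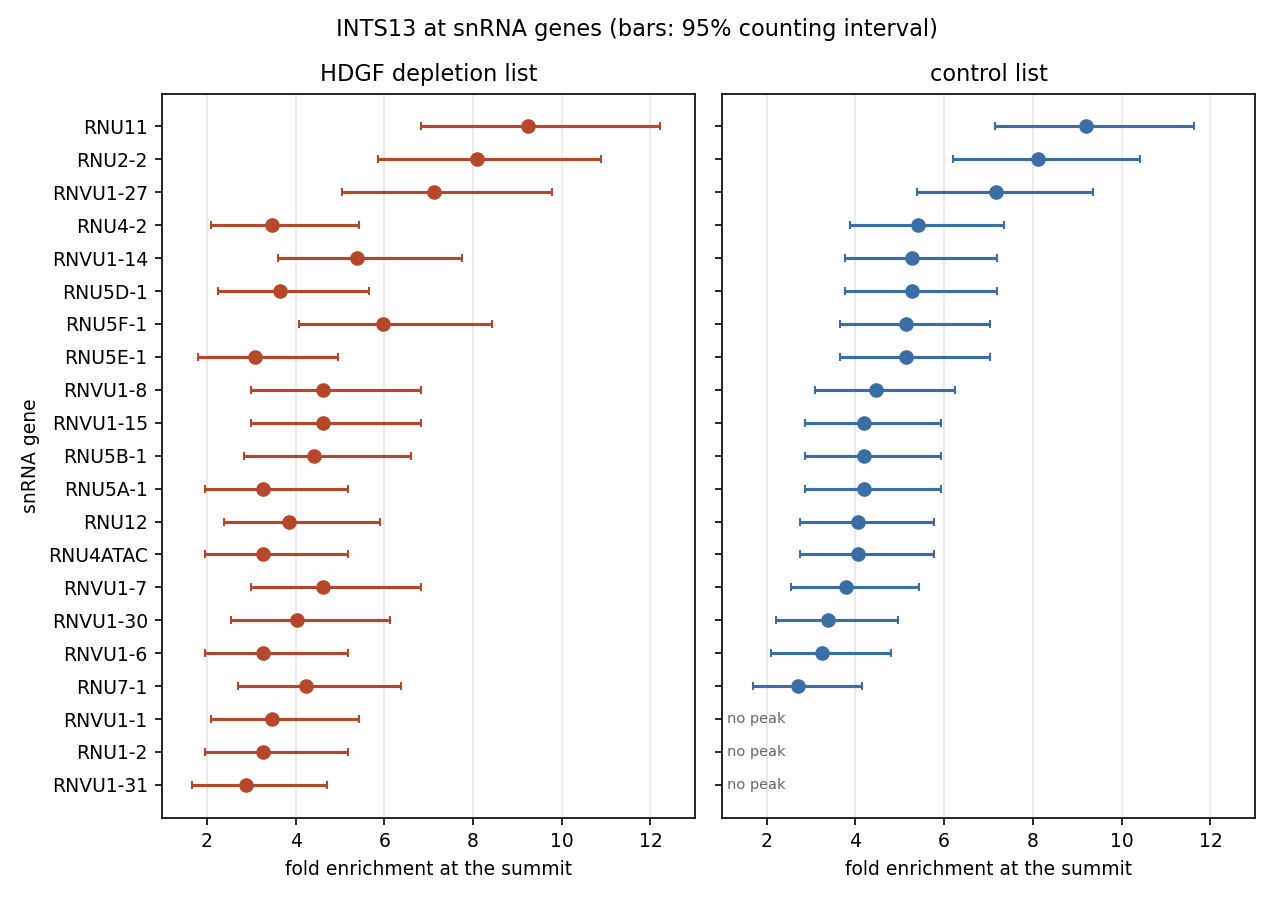
Authors' fold enrichment at the INTS13 summit for the 21 spliceosomal and U7 snRNA genes with a peak in either list, after HDGF depletion (left) and in control (right). Bars are 95% counting intervals of the reads; RNU11 and RNU2-2 have the highest folds in both panels, and 3 genes have no control peak.

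Other short RNA genes had shares nearer to the background. Transfer RNA genes had a depletion peak at 50 of 443 (11.3%) and a control peak at 7 (1.58%). For small nucleolar RNA genes the counts were 115 of 1199 (9.59%) after depletion and 47 (3.92%) in control. Of 85 further genes annotated as snRNA, 8 had a depletion peak and 4 a control peak, and LOC124904147 and LOC124904122 were lost. Among the 28 snaR genes, which are short non-coding RNA genes with near-identical copies, SNAR-C3, SNAR-A10 and SNAR-B1 had a peak in both lists.

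At protein-coding genes, 2200 of 15842 starts (13.9%) had a depletion peak and 586 (3.7%) a control peak. Kept genes numbered 441 (2.78%), gained genes 1759 (11.1%) and lost genes 145 (0.915%). The kept genes are 20.0% of the depletion genes and 75.3% (71.6 to 78.7) of the control genes. Many windows hold a pair of divergent genes, so the 1759 gained genes rest on 1628 distinct peaks and the 145 lost genes on 135. With both lists at the length of the control list by −log10 q, there were 302 kept, 503 gained and 284 lost genes. At 316 of the 441 kept genes (71.7%) the strongest peaks of both lists overlapped. Agreement was higher among strong peaks: of 258 genes with a strong depletion peak, 169 (65.5%) had some control peak, and of 213 genes with a strong control peak 179 (84.0%) had some depletion peak. At 8 or more the counts were 49 of 58 depletion genes (84.5%) and 84 of 93 control genes (90.3%).

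Kept genes are named by their −log10 q in the control list, and the first 10 are given, so genes high in control are favoured. The first was LAMP1, a main glycoprotein of the lysosomal membrane, with a fold of 9.04 (6.67 to 12) after depletion and 9.46 (7.39 to 11.9) in control. Its summits lay 213 bp upstream of the start after depletion and 159 bp upstream in control, among 6 CACGTG matches in the 300 bases searched. TM2D1, a membrane protein gene, had 8.27 after depletion and 7.84 in control, and its summits lay 95 and 102 bp downstream. DNAJC8, a J-domain protein of the splicing machinery, had 5.97 after depletion and 6.35 in control. TAF12, a subunit of the general factor TFIID, had 5.39 after depletion and 6.62 in control, from a peak at its own start that is separate from the RNU11 peak nearby. CPSF2, a subunit of the cleavage and polyadenylation complex, had 6.16 after depletion and 6.08 in control, from a peak shared with NDUFB1. MPI, the mannose phosphate isomerase, had 5.77 after depletion and 6.35 in control, and FBXO28, an F-box protein, 5.20 and 6.22.

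In this set of 10 KDM5C, a demethylase of histone H3 lysine 4, had 3.85 (2.39 to 5.90) after depletion and 6.62 (4.92 to 8.73) in control. These counting intervals overlapped. ASH1L, a methyltransferase acting on histone H3 lysine 36, had 7.89 (5.69 to 10.7) after depletion and 5.54 (4.0 to 7.50) in control, and each summit held 40 reads. At ASH1L the folds thus differ only through the background of the lists. ASH1L is outside the 10. SPANXB1 and APIP complete them; SPANXB1 has near-identical copies, and APIP shares its peak with PDHX.

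The lost genes had moderate control peaks. MAN2C1, an alpha-mannosidase, led with a control fold of 5.13 (3.66 to 7.03) from 37 reads, at a summit 82 bp after the start, and had no depletion summit in the window. TLE4 had the same control fold, upstream of its start, while a depletion-only peak lay inside the gene. NUP88, a nuclear pore protein, and RPAIN, which carries replication protein A into the nucleus, share a single control peak at chr17:5419475-5419705 with a fold of 4.46 (3.09 to 6.24). EIF3B, a translation initiation factor, MRPL39, a mitochondrial ribosome protein, and PRR12 each had 4.32. GAGE12B and NBPF1 belong to families of near-identical copies. Only 33 of the 145 lost genes (22.8%) had no depletion peak anywhere in the gene or within 2.5 kb of it, among them NUP88, RPAIN, C11orf68 with 4.19, MTHFD2L with 4.19, CTNS with 3.92 and SLC20A1 with 3.92.

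Among gained genes the strongest were DHX29 and MTREX, divergent genes with a single depletion peak at chr5:55307982-55308269 and a fold of 5.58 (3.77 to 7.98) from 28 reads. MTREX is the helicase of the nuclear RNA exosome, and DHX29 is a helicase of translation initiation. IP6K1, an inositol hexakisphosphate kinase, also had 5.58. AP5Z1, a subunit of an endosomal adaptor, and the pair RPS6KB1 and TUBD1, which share a peak, had 5.39. CEBPA, a transcription factor of fat and myeloid cells, KAT5, a histone acetyltransferase, and TASOR, a subunit of the HUSH silencing complex, had 5.20. No control peak touched the gene or its 2.5 kb flanks at 1134 of the 1759 gained genes (64.5%). IP6K1 and CACHD1, with a depletion fold of 5.00, were not among them.

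The lists of genes by function were read against these shares of all genes with a start. Of 60 ribosomal protein genes, 23 (38.3%, 26.1 to 51.8) had a depletion peak, against 13.9% of all genes, and 7 (11.7%, 4.82 to 22.6) a control peak, against 3.7%. Of the 6 kept genes, RPL4 had 4.04 after depletion and 3.38 in control, RPL39 3.85 and 3.65, RPL3 3.66 and 3.51, and RPS28 3.46 and 3.38. RPL7A, with a control fold of 3.24, was the single lost gene. The 17 gained genes were led by RPL32 with 4.62 and RPL10 with 4.43.

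Replication-dependent histone genes had a depletion peak at 16 of 58 starts (27.6%, 16.7 to 40.9) and a control peak at 1 (1.72%). H1-4, a linker histone, was kept with 3.27 after depletion and 2.84 in control. The 16 genes with a depletion peak, of which 15 were gained, rest on 11 distinct peaks. The interval above counts genes that share a peak as separate genes. The strongest peaks of gained genes were a peak of 3.85 shared by H2AC17 and H2BC17 and a peak of 3.66 shared by H2AC14 and H2BC14. No histone gene had a strong peak. Of 25 genes for spliceosomal snRNP proteins, 6 (24%, 9.36 to 45.1) had a depletion peak and none a control peak, and SNRPD3 led with 4.62. Of 17 exosome and decay genes, 4 (23.5%, 6.81 to 49.9) had a depletion peak and 1, DIS3, also a control peak. The depletion intervals of the snRNP protein and exosome lists include the 13.9% of all genes. ZCCHC8, a partner of MTREX, was gained with 4.04.

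**Figure D4:**
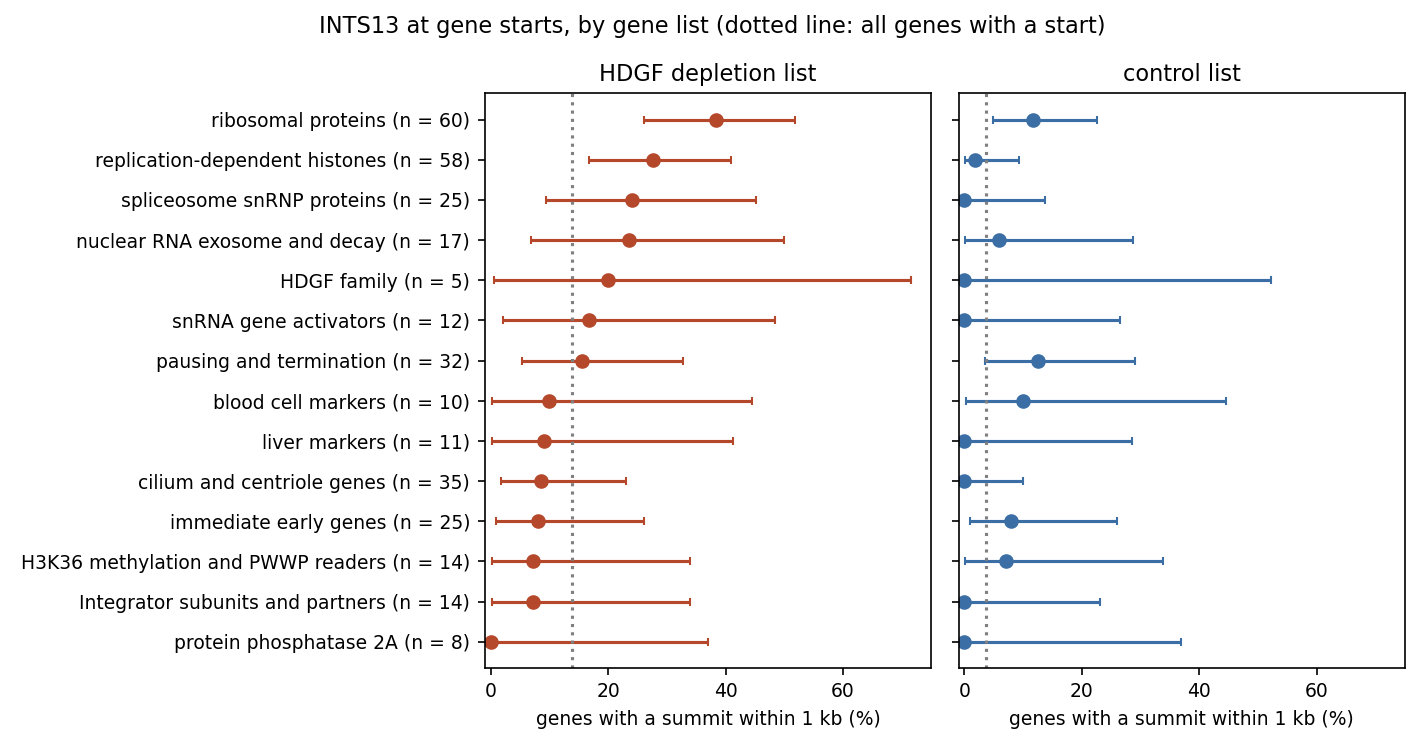
Share of genes (%) with an INTS13 summit within 1 kb of the start, for 14 functional lists, after HDGF depletion (left) and in control (right), with exact 95% intervals. The dotted lines mark all genes with a start, 13.9% after depletion and 3.7% in control; ribosomal protein genes are highest in the depletion panel.

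Genes that act in pausing and termination, which Integrator joins, had a depletion peak at 5 of 32 starts and a control peak at 4. POLR2A, the largest subunit of RNA polymerase II, was kept with 4.62 after depletion and 4.05 in control. HEXIM1, an inhibitor of the kinase P-TEFb, was lost with a control fold of 3.24, and CSTF2 was lost with 2.70. MEPCE, the capping enzyme of 7SK RNA, and WDR82 were gained with 3.66. None of 14 genes for Integrator subunits and partners had a control peak (0%, 0 to 23.2), an interval that includes the share of all genes. INTS14 was gained with 3.66 at a summit 992 bp before its start. HDGF itself was gained with 3.66 (2.25 to 5.67), from 18 reads, 240 bp after its start. A control peak touched the HDGF gene or its 2.5 kb flanks, so this gain concerns the start window only. The other 4 genes of the HDGF family had no peak at the start. Among 25 immediate early genes 2 (8%, 0.984 to 26.0) had a peak in each list. JUN was kept with 3.85 after depletion and 3.11 in control, BTG2 was lost with 3.78 and ATF3 was gained with 3.46. Of 12 genes for activators of snRNA transcription 2 (16.7%, 2.09 to 48.4), SNAPC5 and POU2F1, were gained with 4.04 and 2.89. Of 35 cilium and centriole genes 3 (8.57%, 1.80 to 23.1), BBS4, KIF3B and IFT46, were gained with 3.66, 3.46 and 3.27. Of all genes with a start 11.1% were gained, a share inside both intervals. Protein phosphatase 2A genes had no peak in either list (8 starts, 0 to 36.9% in each list), an interval that includes both shares of all genes. Among genes of other cell types, 1 of 11 liver markers, APOA2, had a depletion peak and none a control peak. Of 10 blood markers 1, LCK, had a peak in both lists; with a single gene each, these shares cannot be told from the background of either list.

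Over all chromosomes together, AAGATGGC, CACGTG and GGGCGG were more frequent in promoters with strong INTS13 peaks than in all promoters, and CCAAT was not. Each motif was searched on both strands in the 250 bases before and 50 after each start. AAGATGGC (reverse complement GCCATCTT) was present in 3.91% of all 15842 promoters. It was present in 10.9% (7.33 to 15.3) of promoters with a strong depletion peak and in 19.2% (14.2 to 25.2) of promoters with a strong control peak. By class it was present in 5.23% (4.24 to 6.38) of gained, 12.9% (9.94 to 16.4) of kept and 8.28% of lost promoters. In the 213 strong control promoters its 43 matches had a median position of 18 bases after the start, 83.7% were in the direction of the gene and 86.0% began after the start. Over all promoters the median was 10 bases, with 73.0% in the direction of the gene and 60.7% after the start.

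CACGTG, which is its own reverse complement, was present in 8.88% of all promoters. It was present in 15.9% of promoters with a strong depletion peak and in 22.1% (16.7 to 28.2) of those with a strong control peak. By class the shares were 10.0% (8.64 to 11.5) of gained, 16.6% (13.2 to 20.4) of kept and 20.0% (13.8 to 27.4) of lost promoters, and the interval of the gained promoters includes the share of all. No match of one motif overlapped one of the other, and either was present in 24.8% of strong depletion promoters, 39.0% (83 of 213) of strong control promoters and 12.3% of all promoters. At the 89 gained genes with a strong depletion peak, AAGATGGC was present in 6.74% and CACGTG in 11.2%. TATAAA (reverse complement TTTATA) was present in 9.63% of all promoters and in 1 of the 109 with strong peaks in both lists (0.917%). CCAAT (reverse complement ATTGG) differed little, with 34.9% of strong depletion promoters, 32.4% of strong control promoters and 36.4% of all. GGGCGG (reverse complement CCGCCC) was present in 67.4% (61.4 to 73.1), 69.5% (62.8 to 75.6) and 58.5% of the same sets. GCGCATGC (NRF1; reverse complement GCATGCGC) was present in 8.53%, 6.57% and 4.26% of these sets, CCGGAAGT (ETS factors; ACTTCCGG) in 9.69%, 7.51% and 6.19%, and ACTACA (ZNF143; TGTAGT) in 7.75%, 9.39% and 8.52%. TGACGTCA (CRE, its own reverse complement) was present in 1.55%, 2.35% and 2.59%, and the octamer ATGCAAAT (ATTTGCAT) in 0.775%, 0.469% and 1.70%. Median GC content was 64.3% in strong depletion promoters, 65.3% in strong control promoters and 62.7% in all, and its part in these shares was not tested. A match to the letters is no evidence that a factor binds there, and neighbouring genes can share a promoter region.

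**Figure D5:**
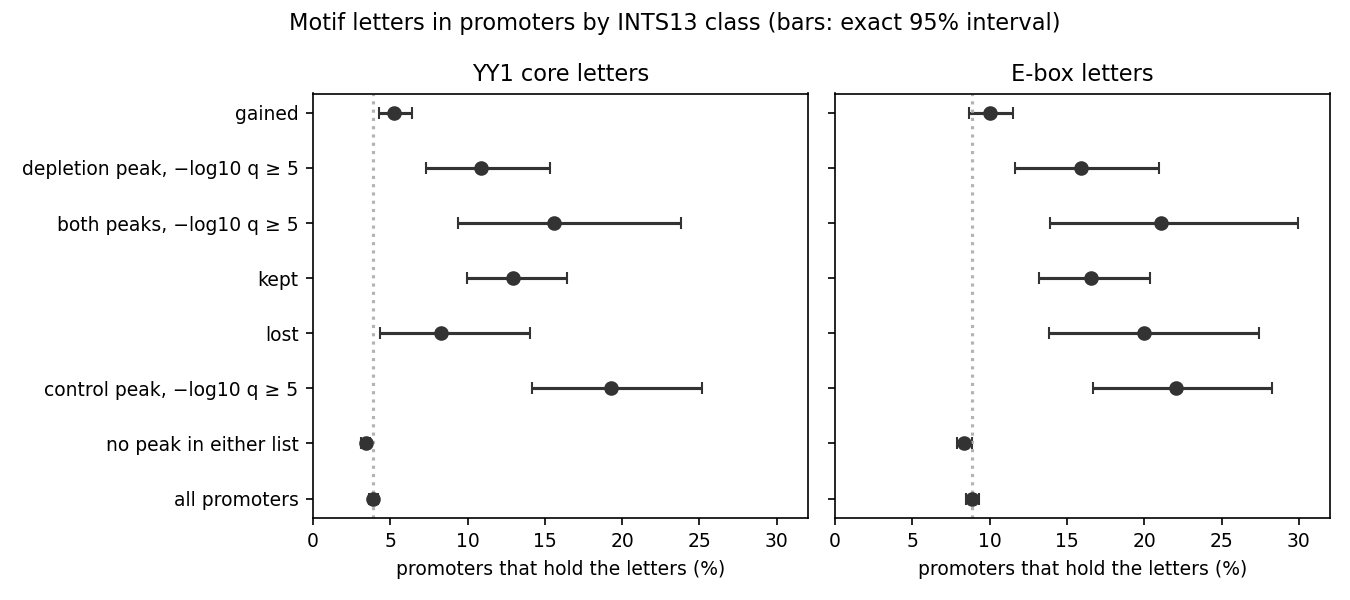
Share of promoters (%) holding AAGATGGC (left) and CACGTG (right), for classes of INTS13 occupancy, with exact 95% intervals as bars and a dotted line at all promoters. Strong control promoters reach 19.2% for AAGATGGC and 22.1% for CACGTG, and gained promoters 5.23% and 10.0%.

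The peaks of the lists were spread differently over the chromosomes. Chromosomes 1, 13, 22 and X held 49.7% of depletion peaks and 79.4% of control peaks, and 44.0% of depletion-only and 74.8% of control-only peaks. Chromosome 13 had 7596 depletion peaks and 7198 control peaks, chromosome 1 had 31519 and 12852, and chromosome 11 had 1458 and 47. Of protein-coding genes, 1.69% are on chromosome 13, 10.3% on chromosome 1 and 6.49% on chromosome 11. Among 575 bins of 5 Mb with a peak, 143 had no control peak and 3 no depletion peak. The 10 bins with the most control peaks held 45.8% of control peaks and 17.6% of depletion peaks. The first of them, chr1:225000001-230000000, held 9.37% of control peaks and 2.93% of depletion peaks. On the 4 chromosomes 1, 13, 22 and X, 24.3% of depletion peaks and 53.2% of control peaks were shared, and on the others 4.66% and 39.2%. At gene starts 80.6% (75.7 to 84.8) of control genes were kept on the 4 chromosomes and 69.3% (63.5 to 74.7) on the others. Kept genes were 8.12% of genes with a start on the 4 chromosomes and 1.5% on the others, and gained genes were 19.4% of genes with a start on the 4 chromosomes and 9.12% on the others. On the other chromosomes AAGATGGC was present in 13.2% of strong depletion promoters, 22.3% of strong control promoters and 3.87% of all, and CACGTG in 21.2%, 24.6% and 8.74%. On the 4 chromosomes AAGATGGC was present in 7.48% (3.28 to 14.2), 14.5% (7.70 to 23.9) and 4.05% of the same sets. CACGTG was present there in 8.41% (3.92 to 15.4), 18.1% (10.5 to 28.0) and 9.46%. Strong depletion promoters of the 4 chromosomes thus showed no excess of CACGTG, and their interval for AAGATGGC includes the share of all.

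HDGF had been mapped in control cells of the same series, and its peaks were counted in the same windows. An HDGF control peak was present at 28.1% (494) of gained, 37.4% (165) of kept and 18.6% (27) of lost genes, against 7.05% of genes with no INTS13 peak and 10.3% of all genes with a start. Outside chromosomes 1, 13, 22 and X the shares were 23.8% of gained, 24.0% of kept and 20.0% of lost genes, against 6.25% of genes with no INTS13 peak.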

How the data were processed

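Reads were paired-end of 150 bp per the labels, and the submitters' processing notes name hg38 with MACS2, Picard, Bowtie, Trimmomatic and FastQC. The sources used here do not give versions, the use of inputs or the way replicates were combined; the peak names hold the value 0.05. Each deposited list gives, per peak, an integer score, a fold (ratio) over background at the summit, and −log10 p and −log10 q (transformed p- and q-values), all of them the authors' values; each was used within its own list only, for ranks, thresholds and description. The summit offset is also deposited. Peaks on other sequences were left out (30 in the depletion list, 16 in the control list). The 6 input samples were not analysed here.

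Every distinct fold (88 in the depletion list, 122 in the control list) came out as (reads + 1) over (background + 1) with whole reads, within 0.02. A single background per list fitted all its folds, and each fold had a single p-value. The listed values thus show no background that varies along the genome. Poisson intervals of the reads gave the fold intervals, which cover counting error only and ignore that a summit is chosen as a maximum. Total read depth is unknown. Gene starts came from RefSeq promoters (GRCh38.p14) for 79.1% of protein-coding genes; no gene of chromosome 8 had one used here. Shares have exact Clopper-Pearson 95% intervals. Scripts used Python 3.11.15, pandas 2.3.3, numpy 2.4.6 and scipy 1.17.1, and the overlap step was tested on simulated data.

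The members and gene lists were chosen with earlier results of these data known. Genes named are the 10 with the highest −log10 q of each class and strict class, all snRNA, Integrator and HDGF family genes with a peak, up to 4 per class of every other list and the 5 strongest intervals of each kind; of these the text gives the leading ones. BLTP3B is shown for its motif. Alternatives changed the overlap, the threshold, list length, chromosomes, gene window and peak definition.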

Additional observations from a re-analysis of the deposited data

How the results depend on the processing

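Of 57 alternative values, 17 stayed within the interval of the main value or, for counts, within 1.5 times of it, 38 moved further and 2 changed sign. Depletion peaks found in control, 14.4%, became 6.22% with at least 50% of both peaks shared, 9.75% with summits within 250 bp, 26.6% with a −log10 q of at least 5 in both lists, 30.0% at equal list length, 4.66% without chromosomes 1, 13, 22 and X, and 14.2% without peaks over 100 kb from genes. Control peaks found after depletion, 50.3%, became 21.1%, 33.0%, 37.2%, 32.7%, 39.2% and 51.0% under the same settings, in that order. The strongest 10% of control peaks, 73.2%, became 40.7% with 50% overlap, 47.4% by summits and 76.3% without peaks far from genes. Kept genes, 441, became 109 with the threshold of 5, 192 without the 4 chromosomes, 261 within 500 bp, 761 within 2500 bp and 777 at either end of all coding genes. The share of control genes kept ranged over these and the other settings between 51.2% and 84.5%. Lost genes, 145, became 284 at equal length and 85 without the 4 chromosomes. Gained genes, 1759, became 149 with the threshold of 5, 503 at equal length, 1165 without the 4 chromosomes, 986 within 500 bp, 3137 within 2500 bp and 3051 at either end. Of the 18 snRNA genes kept, 9 were kept with the threshold of 5; the snRNA genes lost, 0, became 5 at equal length and 6 with the threshold, and the 3 gained became 1 under both. The excess of shared over control-only peaks at starts, 1.06 percentage points, became 1.75 within 2500 bp, 3.22 without the 4 chromosomes and 1.63 at either end. The excess of shared over depletion-only peaks at starts, 0.12 points (−0.13 to 0.40), became 0.54 within 500 bp and 3.42 without the 4 chromosomes, and reversed to −1.03 within 2500 bp and −0.26 at either end; the cause was not tested. The settings for snRNA genes, with either end of genes and without peaks far from genes were chosen after seeing the data. No paired analysis was possible because each group has a single list with no replicate columns, and for the same reason no replicate could be left out.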
